A study of Mus musculus with 6 samples.

Results

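The cytosolic ribosomal protein genes encode the protein components of the small and large subunits of the ribosome. They were taken from a gene expression study of mouse kidney cortex by symbol: Rps or Rpl followed by a number and at most 1 letter (a, x or y), plus Rplp0, Rplp1, Rplp2 and Rpsa. Of 76 symbols that matched, 75 had a summed count of at least 10 read pairs over the 6 libraries, out of 24421 genes in the table. They comprised 30 genes of the small subunit and 45 of the large one. RNA came from cortex of mice that express I-PpoI specifically in proximal tubular epithelial cells (I-PpoI, 3 libraries, numbered 1 to 3) and of wild type mice (WT, 3 libraries). I-PpoI is a homing endonuclease of a slime mould, which breaks both DNA strands at its rare target sites. The labels do not give the promoter that drives the enzyme, nor the strain, age or sex of the mice, and the transgene was not analysed here. The samples are numbered, but nothing states that every one is a different mouse, and the p-values therefore reflect only how far these samples spread. Libraries held 13582540 to 20861021 counted read pairs.

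Ribosomal proteins are made in near-equal amounts, because each enters the ribosome as a single copy apart from the acidic stalk proteins, and their genes are among the most highly expressed in most cells. Their mRNAs are short and begin with a run of pyrimidines, the terminal oligopyrimidine (TOP) tract, through which the kinase complex mTORC1 and the RNA-binding protein LARP1 control their translation. I-PpoI has a recognition site in the genes for the large ribosomal RNA, and ribosomal proteins left over when ribosome assembly fails can bind MDM2, the ubiquitin ligase that keeps p53 low.

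The windows around the annotated transcription starts are shown for the genes that the results turn on: Rpl35a and Rplp0, which lay below WT while nearly all the others lay above it, and Rpl39, Rplp2 and Rpl37, which had the smallest p-values among the genes above WT. Each window runs from 15 bases before the start to 15 bases from it onwards, 5′ to 3′ on the gene's strand. Capitals mark the longest unbroken run of C and T letters where it has at least 5 letters. The run can lie anywhere in the window and need not be a TOP tract. It lies before the start for Rplp0 and Rpl37, and after it for Rpl39 and for start 3 of Rpl35a. The sequences are from RefSeq (GRCm38.p6), which lists 3 starts for Rpl35a.
Rpl35a, start 1 (chr16:33056438-33056467, + strand): gcggggcgtgcgtcccacaaggccgcgcgg
Rpl35a, start 2 (chr16:33056467-33056496, + strand): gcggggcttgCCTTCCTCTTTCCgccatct
Rpl35a, start 3 (chr16:33056499-33056528, + strand): gcgcctgtggaggtgaggggggTTCCTgct
Rplp0 (chr5:115559452-115559481, + strand): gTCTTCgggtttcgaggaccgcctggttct
Rpl39 (chrX:37085208-37085237, - strand): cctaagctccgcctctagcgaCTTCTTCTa
Rplp2 (chr7:141447636-141447665, + strand): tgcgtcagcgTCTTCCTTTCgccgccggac
Rpl37 (chr15:5116598-5116627, + strand): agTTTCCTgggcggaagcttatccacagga

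A run of 8 or more C and T letters lay anywhere in the window at 26 of 65 starts of ribosomal protein genes (40%), against 12% of all 32851 starts listed. RefSeq starts were found for 55 of the 75 genes. Among the windows printed, start 2 of Rpl35a had the longest run, at 13 letters, and Rplp0 had 5. The letters CCGGAAG, a core that ETS factors such as GABP bind, were found on either strand of the 300-base window (250 bases before the start and 50 after) at 35.4% of ribosomal protein starts and 8.86% of all starts. The letters AAGATGG, part of the site of the factor YY1, were found likewise at 16.9% and 6.34%. Rpl39, Rplp2 and Rpl37 held CCGGAAG and not AAGATGG, and the windows of Rpl35a held AAGATGG and not CCGGAAG. Rplp0 held neither in this window. The searches describe letters and not bound sites.

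Counted read pairs in ribosomal protein genes took up a larger part of 2 of the 3 I-PpoI libraries than of any WT library. The 75 genes held 2.45% of all counts in I-PpoI replicate 1 (95% Wilson interval 2.44 to 2.45), 2.73% in replicate 2 (2.72 to 2.73) and 1.96% in replicate 3 (1.95 to 1.96). They held 2.08% (2.07 to 2.08), 2.01% (1.999 to 2.014) and 1.94% (1.94 to 1.95) in WT replicates 1 to 3. The intervals cover counting error only. The means were 2.38% ± 0.39 in I-PpoI and 2.01% ± 0.066 in WT (SD, n = 3 each), so the I-PpoI libraries were spread more widely than the WT libraries. I-PpoI replicate 3 lay between WT replicates 2 and 3. Without I-PpoI replicate 3 the difference between the means was 0.58 percentage points, against 0.37 with it, and without I-PpoI replicate 2 it was 0.19. In bulk tissue, a change in the number of cells of a type and a change in RNA per cell cannot be told apart.

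**Figure D1:**
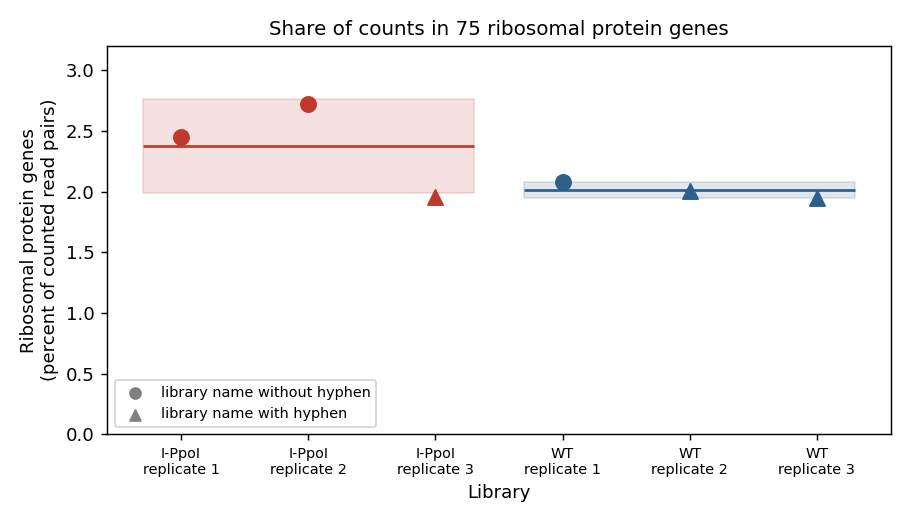
Percent of all counted read pairs that fell in the 75 ribosomal protein genes (y axis, from 0), by library (x axis); lines and bands are group means and SDs, and the marker shape gives the form of the library name. I-PpoI replicates 1 and 2 lie above all WT libraries and replicate 3 lies among them.

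Gene by gene, no ribosomal protein gene passed the test, and the log2 fold changes were small but nearly all of one sign. All 75 genes passed the expression filter. In the quasi-likelihood test of edgeR, adjusted by Benjamini and Hochberg's method over 13977 genes, 0 were higher and 0 lower in I-PpoI, where 0.136% of all genes tested were higher and 0% lower. Before adjustment, 12 had p under 0.05 with I-PpoI higher and 2 with I-PpoI lower, against 6.42% and 5.61% of all genes. DESeq2 called 0 higher and 1 lower (0.917% and 0.423% of all genes). Fold changes were above 0 for 72 of the 75 genes, as for 50.1% of all genes, with a median of 0.21 on the log2 scale against 0.00 over all genes. The genes share libraries and are not independent of each other. The median log2 value was 0.23 for the small subunit, where all 30 lay above 0, and 0.20 for the large one, where 42 of 45 did. Differences of this size were rarely called on simulated counts for this comparison. Run on 13977 genes, the procedure recovered 0.4% of 1.2-fold changes and 37.2% of 1.5-fold changes. The changed genes were drawn at random from all genes tested, so these rates are not specific to ribosomal protein genes. Of the 75, 68 had a mean of at least 100 counts per megaread.

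**Figure D2:**
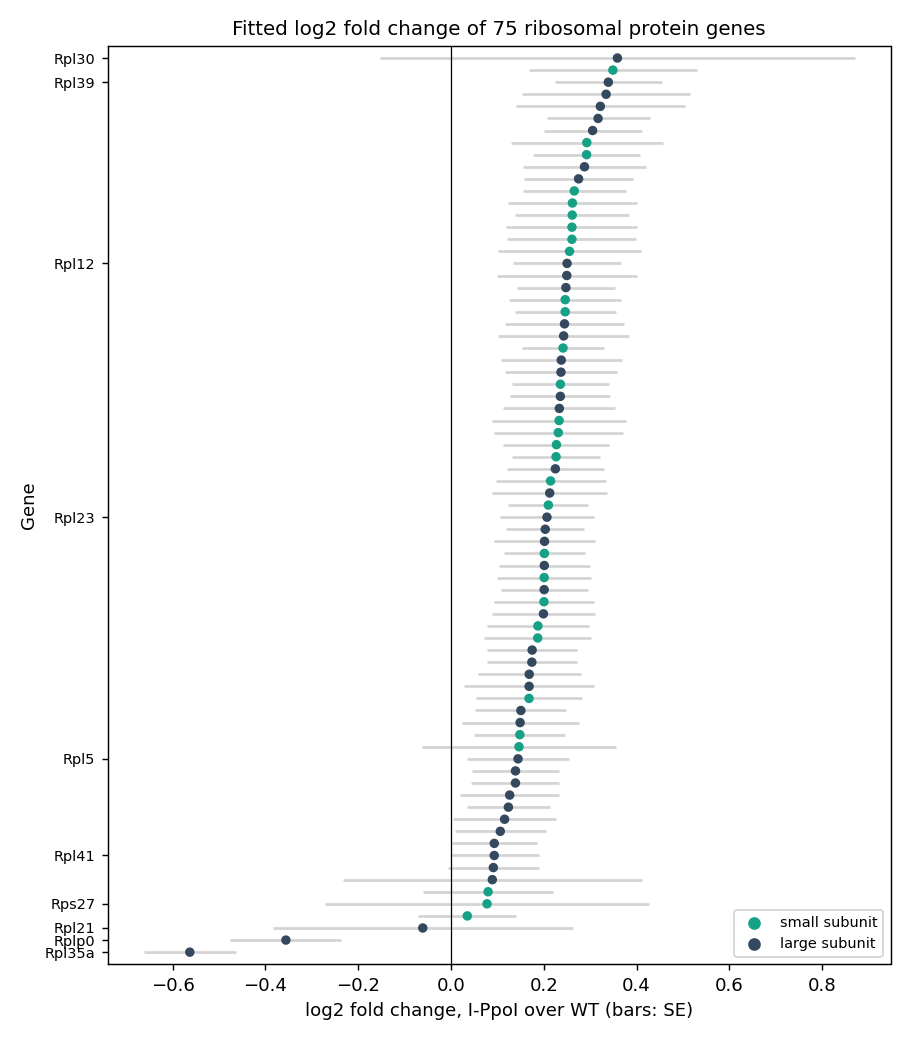
Fitted log2 fold change of I-PpoI over WT (x axis; bars are SEs) for each of the 75 ribosomal protein genes (y axis, ordered by value, with 10 genes labelled; color gives the subunit). Values run from -0.56 for Rpl35a to 0.36 for Rpl30, a gene with only 51 counts in all (SE 0.51), and 72 of 75 lie above 0.

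The profile over the libraries was shared by nearly all of the genes. I-PpoI replicate 2 was the highest of the 6 libraries for 70 of 75 genes (22.4% of all genes tested), and replicates 1 and 2 both lay above every WT library for 67 (21.5%). I-PpoI replicate 3 lay within the WT range for 37 genes (49.1%), above it for 12 and below it for 26. Groups that did not overlap were seen for 12 genes with I-PpoI higher (9.23% of all genes) and 2 with I-PpoI lower (7.74%). The median of log2 CPM (counts per megaread of the adjusted library total) centred on each gene's mean was 0.12, 0.29 and -0.12 in I-PpoI replicates 1 to 3. In WT it was -0.09, -0.09 and -0.12. When I-PpoI replicate 3 was left out, 10 genes were higher and 1 lower by edgeR (1.84% and 2.56% of all genes tested). Among the genes higher were Rpl18, Rpl28, Rpl37, Rpl37a, Rplp2, Rps10, Rps18 and Rps19.

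**Figure D3:**
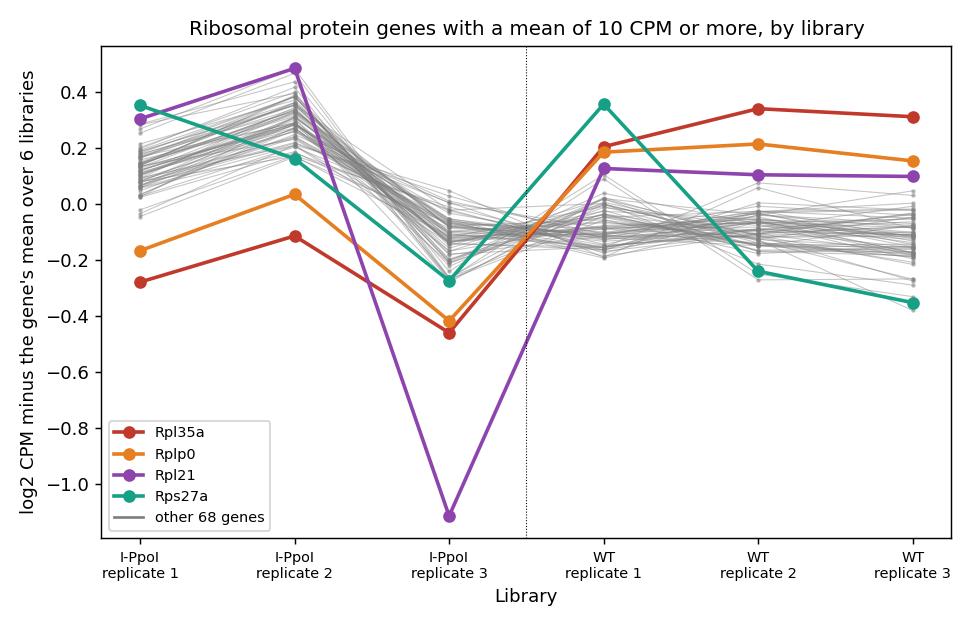
Log2 CPM minus the gene's mean over the 6 libraries (y axis) for the 72 ribosomal protein genes with a mean of at least 10 CPM, by library (x axis); each line is a gene, and 4 genes that leave the common profile are colored. Most genes peak in I-PpoI replicate 2, while Rpl35a and Rplp0 are lowest in I-PpoI replicate 3 and higher in all WT libraries than in any I-PpoI library.

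The libraries also differ in the form of their names, which have a hyphen before the final number (I-PpoI replicate 3, WT replicates 2 and 3) or none (I-PpoI replicates 1 and 2, WT replicate 1). No label says what the form stands for. Among names without a hyphen, 71 of 75 genes were higher in I-PpoI, with a median log2 difference of 0.28 (-0.005 over all genes tested). This rests on WT replicate 1 alone for its group. Among names with a hyphen, 31 were higher and the median was -0.01 (0.002 over all genes tested). Here I-PpoI replicate 3 stood alone for its group. When the edgeR fit included the name form, the median log2 fold change was 0.14, and 0 genes were higher and 1 lower (0.351% and 0.107% of all genes). Rpl35a and Rplp0 alone among the 75 lay below 0 within both forms.

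**Figure D4:**
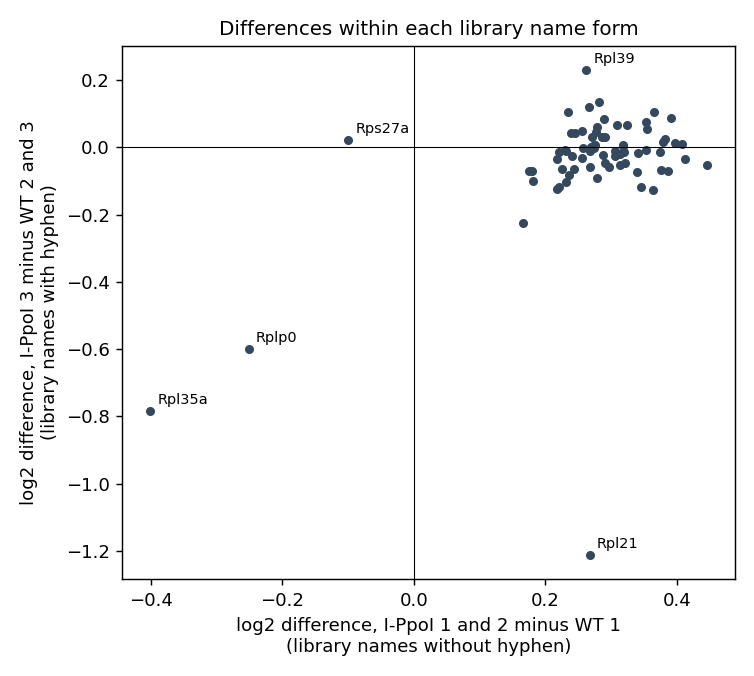
Log2 difference between I-PpoI and WT within libraries named without a hyphen (x axis) and with one (y axis), for the 72 ribosomal protein genes with a mean of at least 10 CPM; each point is a gene. Most points lie to the right of 0 and near 0 on the y axis, Rpl21 lies lowest on the y axis, and Rpl35a and Rplp0 lie below 0 on both.

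Rpl35a encodes a protein of the large subunit, and loss of 1 copy of its human counterpart is a cause of Diamond-Blackfan anaemia, a failure of red cell production. The gene (chromosome 16, 33056453 to 33060188, mm10) was at 95.0, 107 and 83.8 CPM in I-PpoI replicates 1 to 3. It was at 133, 146 and 143 CPM in WT. Every I-PpoI library lay below every WT library, and the 2 I-PpoI libraries that were highest for most ribosomal protein genes were low for this one. The log2 fold change was -0.56 ± 0.10 (SE), which missed the threshold (edgeR adjusted p = 0.0929). It was called lower by DESeq2 (adjusted p = 3.5e-04), by edgeR once the name form entered the fit (-0.59 ± 0.10 on the log2 scale, adjusted p = 0.0491) and by edgeR without I-PpoI replicate 3 (adjusted p = 0.0299). Over all the other alternatives its edgeR or limma adjusted p ran from 0.0847 to 0.453. The differences were -0.40 and -0.78 within names without and with a hyphen.

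Rplp0 encodes the protein that anchors the acidic stalk proteins to the large subunit and is widely used as a reference gene in quantitative PCR. The gene (chromosome 5, 115559467 to 115563729) was at 616, 709 and 518 CPM in I-PpoI and at 786, 803 and 770 CPM in WT. The groups again did not overlap, and the WT libraries lay close together. The log2 fold change was -0.36 ± 0.12 (edgeR adjusted p = 0.329), and it did not pass under any alternative, at adjusted p of 0.130 to 0.716.

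Set against the ribosomal protein total, Rpl35a and Rplp0 separated the groups more sharply than on the CPM scale, a scaling chosen after the values were seen. Rpl35a made up 0.407%, 0.402% and 0.423% of the counts of the 75 genes in I-PpoI, and 0.640%, 0.708% and 0.708% in WT. The widest 95% Wilson bounds were 0.448% at the top for I-PpoI and 0.616% at the bottom for WT. These bounds cover counting error within a library and not the spread between samples. Rplp0 made up 2.64%, 2.68% and 2.62% in I-PpoI and 3.79%, 3.89% and 3.81% in WT. The means for Rplp0 were 2.64% ± 0.030 and 3.83% ± 0.055 (SD, n = 3 each), and those for Rpl35a were 0.411% ± 0.011 and 0.685% ± 0.039. The I-PpoI mean was thus 0.600 times the WT mean for Rpl35a and 0.691 times for Rplp0. Of the 72 genes with a mean of at least 10 CPM, 65 had a ratio between 0.9 and 1.1, and the only other gene under 0.9 was Rpl21. An edgeR fit that set the library size to the ribosomal protein total gave log2 fold changes of -0.74 for Rpl35a and -0.53 for Rplp0, with edgeR adjusted p of 0.162 and 0.497 over all genes.

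**Figure D5:**
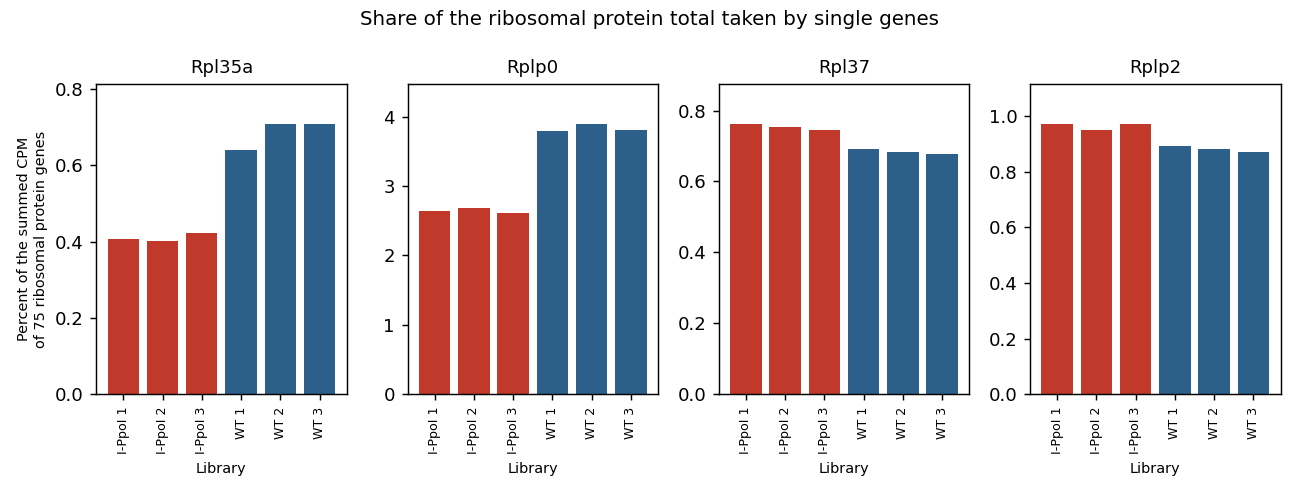
Percent of the summed CPM of the 75 ribosomal protein genes (y axes, from 0) taken by Rpl35a, Rplp0, Rpl37 and Rplp2 in each library (x axes; bars are single libraries, red for I-PpoI and blue for WT). The bars of Rpl35a and Rplp0 are lower in all 3 I-PpoI libraries than in all 3 WT libraries, and those of Rpl37 and Rplp2 are slightly higher.

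The other members of the stalk, the flexible arm that recruits elongation factors, lay on the opposite side of 0. Rplp2 (chromosome 7, 141447650 to 141451342), an acidic stalk protein, was at 227, 252 and 192 CPM in I-PpoI and 185, 182 and 176 CPM in WT. The groups did not overlap, although I-PpoI replicate 3 exceeded WT replicate 1 by little. Its log2 fold change was 0.31 ± 0.11 (edgeR adjusted p = 0.340). Rplp1, its partner in the stalk, had 0.17 ± 0.10, and Rpl12, at the base of the stalk, 0.25 ± 0.12 (edgeR adjusted p = 0.485 and 0.429). The stalk thus held 1 gene below 0 and 3 above it.

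Among the genes above WT, Rpl39 had the smallest p. It encodes a small protein that lines the tunnel through which the nascent chain leaves the ribosome. Rpl39 (chromosome X, 37082520 to 37085184) was at 108, 122 and 93.9 CPM in I-PpoI and 95.4, 82.2 and 78.0 CPM in WT, with I-PpoI replicate 3 below WT replicate 1. The log2 fold change was 0.34 ± 0.12 (edgeR adjusted p = 0.334), and the within-form differences were 0.26 and 0.23. It was thus also higher in I-PpoI replicate 3 than in the WT libraries of the same name form. All 7 tested genes on the list for the exit tunnel lay above 0, with a median of 0.15, and 0 passed. Rpl31, next on that list, had a log2 fold change of 0.24 ± 0.11.

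Rpl37 (chromosome 15, 5116613 to 5119140), a zinc-binding protein of the large subunit, was at 178, 199 and 148 CPM in I-PpoI and 144, 141 and 137 CPM in WT. These groups did not overlap, and the log2 fold change came to 0.32 ± 0.11 (adjusted p = 0.344 by edgeR). Rpl36a, also of the large subunit and X-linked, had 0.20 ± 0.08. On the small subunit, Rps20 was at 196, 220 and 185 CPM in I-PpoI and 171, 176 and 162 CPM in WT, a log2 fold change of 0.24 ± 0.09. Rps24 and Rps26, genes mutated in Diamond-Blackfan anaemia, had 0.21 ± 0.09 and 0.23 ± 0.09. For Rps20, Rps24, Rps26 and Rpl36a the groups did not overlap, and the edgeR adjusted p ran from 0.360 to 0.399. Of 18 tested genes on the Diamond-Blackfan list, 17 lay above 0, Rpl35a below, and 0 passed (median 0.20).

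Ribosomal proteins that bind MDM2 followed the common profile. Rpl11 was at 369, 411 and 332 CPM in I-PpoI and 322, 342 and 321 CPM in WT, which gave 0.17 ± 0.10 on the log2 scale (edgeR adjusted p = 0.485). Rpl5, which enters the same complex with the smallest ribosomal RNA, was at 512, 593 and 451 against 465, 469 and 473 CPM, and 0.14 ± 0.11 (0.601). Rpl23 had 0.21 ± 0.10 (0.444). In all 3, replicates 1 and 2 of I-PpoI were the highest libraries and replicate 3 lay among or below the WT libraries. On the list for the decoding and mRNA entry side of the small subunit, all 7 genes lay above 0 and 0 passed (median 0.17). Rps15 and Rps9 had the smallest p there, each with a log2 fold change of 0.25 (SE 0.11 and 0.12).

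A few genes varied in ways that the groups did not follow. Rpl21, of the large subunit, was at 104 and 117 CPM in I-PpoI replicates 1 and 2 but at 38.8 CPM in replicate 3, while WT libraries lay between 89.8 and 91.6 CPM. That 1 library sets the sign of its log2 fold change, -0.06 ± 0.32, which was 0.29 without it. Rps27a encodes a ribosomal protein fused to ubiquitin and is a source of free ubiquitin. It was at 290, 255 and 291 CPM in the libraries named without a hyphen (I-PpoI replicates 1 and 2, WT replicate 1) and at 188, 193 and 178 CPM in those with one. Its values separated by name form and not by group. In the edgeR fit with both terms, Rps27a was lower in hyphenated libraries, at -0.59 ± 0.08 on the log2 scale (adjusted p = 0.00835 by edgeR), and so were Rpl9 (-0.50, adjusted p = 0.0176) and Rpl14 (-0.49, adjusted p = 0.0270). No other ribosomal protein gene was lower and 0 were higher (1.29% and 1.77% of all genes), and 70 of 75 had a value below 0. The share of all genes below 0 was not counted. The table also holds a processed copy of Rpl14, Rpl14-ps1, with 10448 counts in all. The counting set no option for multiply mapped reads, and how such copies affect the counts was not tested.

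Levels per length could be compared for most of the genes. Among the 5 highest by CPM per kilobase of exon were Rpl41, which encodes one of the shortest known proteins, at 1079 CPM per kilobase, Rplp1 at 817, Rps9 at 720 and Rps15 at 677. Rps15a, at 37.2 CPM per kilobase, has an annotated length of 5134 bases that lowers this value. The genes with the smallest spread of log2 CPM over the 6 libraries were Rpl41, Rpl4 and Rpl29, at SDs of 0.10, 0.11 and 0.11. Rpl30, Rpl34 and Rpl21 had the largest.

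Rpl30, Rps27 and Rpl34 had few counted reads, at 51, 142 and 306 counts in all, whereas the next lowest, Rpl21, had 9527. Rpl26 had 0 counts in each library and fell under the limit of 10. A count of 0 allows up to 3 counts in a library, or 0.144 to 0.221 CPM of the unadjusted total, by counting error only. This bound holds for counted reads and is not a limit on the expression of Rpl26. Each of these 4 genes shares exons with a second gene of the annotation (Gm12191, Rps27rt, Rpl34-ps1 and Gm15772), and these partners also had 0 counts. The counting command set no option for reads that overlap several genes. The counts of these 4 genes can therefore not be read as expression levels, and the part of shared exons in them was not tested. The log2 fold changes of Rpl30, Rps27 and Rpl34 had either sign, depending on the alternative. In all, 10 of the 75 genes shared exon sequence with another annotated gene.

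Ribosomal proteins and paralogs that the symbol rule leaves out formed a list of 15 symbols, of which 10 were tested. Of these, 9 lay above 0 (median 0.18 on the log2 scale), and 0 passed. Their centred medians were 0.07, 0.30 and -0.10 in I-PpoI replicates 1 to 3 and -0.06, -0.08 and -0.13 in WT. Fau, which encodes a ubiquitin-like protein fused to a small subunit protein, was at 324, 361 and 246 CPM in I-PpoI and 267, 252 and 251 CPM in WT (log2 fold change 0.27 ± 0.13, edgeR adjusted p = 0.447). Without I-PpoI replicate 3 it was higher (edgeR adjusted p = 0.0366), as were 1.84% of all genes tested. Rps3a1 had 0.23 ± 0.12, and Rps4l, a copy of Rps4x, 0.28 ± 0.16. Other mRNAs with a TOP tract had a median of 0.03 over 15 genes, 11 above 0, and 0 passed. Eif3f, Eef1d and Eef1b2, an initiation and 2 elongation factor subunits, had 0.18 ± 0.11, 0.14 ± 0.09 and 0.17 ± 0.11. Among these genes Eef1a1, the most abundant elongation factor, was at 4601 ± 300 CPM in I-PpoI and 4668 ± 207 CPM in WT (SD, n = 3 each).

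Translation initiation factors had a median of 0.02 over 32 genes, and 0 passed. Before adjustment, edgeR p was under 0.05 for 1 gene above 0 and 2 below, against 6.42% and 5.61% of all genes tested. Eif1b had 0.19 ± 0.08, Eif2s3x -0.21 ± 0.09 and Eif4g3 -0.28 ± 0.12. The list of mTORC1 and regulators of ribosomal protein mRNA translation had a median of 0.01 over 22 genes, and 0 passed. Before adjustment, edgeR p was under 0.05 for 0 genes above 0 and 3 below, against the same shares of all genes tested. The 3 genes below were Eif4ebp2, a repressor of cap-dependent translation (-0.27 ± 0.09), Mtor, the kinase itself (-0.42 ± 0.15), and Sesn2, an inhibitor of mTORC1 (-0.57 ± 0.21). Mtor was at 137, 138 and 197 CPM in I-PpoI and 192, 229 and 209 CPM in WT, so that its 2 lowest libraries were those in which the ribosomal protein genes were highest. Without I-PpoI replicate 3 it was lower (edgeR adjusted p = 0.0204), as were Larp4 and Eif4g3. In that fit 2.56% of all genes tested were lower. These genes are long, at 8595 (Mtor), 6747 (Larp4) and 6325 (Eif4g3) exonic bases. Genes of 4000 exonic bases or more outside the ribosomal protein set had centred medians of -0.02, -0.04 and 0.03 in I-PpoI replicates 1 to 3. In WT these were 0.03, 0.02 and 0.02. The part of length in these values was not tested. Chaperones and export factors of ribosomal proteins had a median of 0.01 over 20 genes, and 0 passed. Grwd1, Sbds and Ltv1 had 0.16 ± 0.12, 0.09 ± 0.07 and -0.11 ± 0.09.

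Log2 fold changes also differed with exonic length, and markers of kidney cell types differed between the libraries. Ribosomal protein transcripts are short, with a median exonic length of 703 bases, and the other genes shorter than 600 bases were at a median of 0.12 on the log2 scale (171 of 224 above 0). The median was 0.09 at 600 to under 1000 bases, 0.04 at 1000 to under 2000, -0.01 at 2000 to under 4000 and -0.04 at 4000 bases or more. Over the genes under 600 bases, centred medians were 0.07, 0.14 and -0.02 in I-PpoI replicates 1 to 3 and 0.00, -0.07 and -0.10 in WT. The 8 markers of the proximal tubule, all detected, summed to 9078 and 8289 CPM in I-PpoI replicates 1 and 2, to 11998 in replicate 3 and to 10571 to 14178 CPM in WT. The 6 thick ascending limb markers summed to 7356 to 7449 CPM in I-PpoI and 5101 to 5807 CPM in WT, and the 8 collecting duct markers to 686 to 919 and 556 to 586 CPM. The 6 endothelial markers summed to 375 to 385 CPM in I-PpoI and 305 to 369 CPM in WT, and skeletal muscle markers (3 of 4 detected) to 1.49 to 2.10 and 0.833 to 1.40 CPM. In these 4 lists the I-PpoI sums lay above the WT sums without overlap. In all the other lists, the proximal tubule included, the groups overlapped. Of the 8 proximal tubule markers, 7 had a log2 fold change below 0 and 1 above it (median -0.25), and 0 passed. All 4 distal convoluted tubule markers lay below 0 (median -0.22), and 0 passed. All 6 thick ascending limb markers (median 0.44) and all 8 collecting duct markers (median 0.33) lay above 0. In each of these lists 1 gene was called higher, Ptger3 and Avpr2 (edgeR adjusted p = 0.0356 and 0.0385), against 0.136% of all genes tested. Only 1 skeletal muscle marker passed the expression filter. Markers of B and plasma cells (6 of 7 detected) summed to 14.1 to 22.3 CPM in I-PpoI and 16.6 to 45.8 CPM in WT. The part of transcript length and of cell composition in the ribosomal protein values was not tested.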

How the data were processed

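RNA-seq libraries of kidney cortex (3 I-PpoI, 3 WT) were made with a stranded mRNA kit. The authors deposited raw read pair counts per gene, made with HISAT2, per the labels' protocols, and featureCounts 1.5.2, per the file headers, with no strand option and none for multiply mapped reads or overlapping genes, so near-identical copies and antisense partners cannot be told apart. The labels name mm9 and the header mm10; all 75 ribosomal protein genes overlapped their GRCm38.p6 (mm10) position and 2 of 74 their NCBIM37 (mm9) one. The authors also deposited log2 values on the rlog scale (DESeq2, per the submitters' processing notes), used for 1 alternative.

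Counts were tested in R 4.3.3 with edgeR 4.0.16 (default expression filter, TMM factors, quasi-likelihood test, two-sided, Benjamini-Hochberg over 13977 genes, threshold 0.05); SEs are from the F statistic. Differences within name forms use log2 CPM with a prior count of 2. DESeq2 1.42.0, limma 3.58.1 and other settings were alternatives. The procedure was tested on simulated data. The genes and lists were chosen with earlier results of these data known. Named genes follow a rule: the smallest p in each direction and each list, the highest and lowest level per kilobase, the most and least variable, and those called; others were chosen after their values were seen. Some genes that the rule names are not reported here.

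Same-numbered replicates were checked for pairing: the correlations of their deviations were 0.22, -0.13 and 0.16, so the numbers were not taken to pair them.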

Additional observations from a re-analysis of the deposited data

How the results depend on the processing

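The median log2 fold change of the ribosomal protein genes, 0.21, stayed above 0 under all alternatives, at 0.10 to 0.30 when 1 library was left out, 0.12 with limma on the rlog values, 0.14 when the name form entered the fit and 0.27 with library totals only. That last scaling moved the median of all genes to 0.06. The count of ribosomal protein genes higher in I-PpoI was 0 except without I-PpoI replicate 3, so the range over left-out libraries was 0 to 10. The count lower was 0, but 1 with DESeq2, 1 with the name form in the fit and 0 to 1 over left-out libraries. In each case the gene was Rpl35a. The replicate block gave 0 higher and 0 lower among these genes, with a median of 0.20, and 33 higher and 7 lower of all genes against 19 and 0 without it. Over left-out libraries the genes called ranged from 0 to 1 among ribosomal proteins and paralogs outside the symbol rule. The range was 0 to 1 among initiation factors and 0 to 2 among mTORC1 genes. Over all genes, calls numbered 128 higher and 59 lower with DESeq2, 49 and 15 with the name form in the fit, 31 and 0 with library totals only, and 261 and 364 without I-PpoI replicate 3. The sign of a named gene changed as follows. Rpl21 was at 0.013 with library totals only and at -0.34 to 0.29 over left-out libraries. Rpl30 was at -0.019 and Rpl34 at -0.052 in the fit with the name form. Over left-out libraries Rps27 ran from -0.11 to 0.46 and Rpl34 from -0.28 to 0.36. With the library size set to the ribosomal protein total, an alternative chosen after seeing the data, the median of all genes was -0.16 and that of the ribosomal protein genes 0.03, with 51 of 75 above 0. There, values were -0.073 for Rpl41, -0.093 for Rps27, -0.068 for Rpl34, -0.064 for Rpl4, -0.078 for Rpl29, -0.032 for Eef1d, -0.010 for Eef1b2, -0.0093 for Grwd1 and -0.068 for Sbds. The cause of these changes was not tested.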

Other observations

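Mitochondrial ribosomal protein genes, which serve the separate ribosome of the mitochondrion, numbered 77 among the genes tested, 53 of them above 0, at a median of 0.05 on the log2 scale. Their centred medians were 0.00, 0.03 and 0.03 in I-PpoI replicates 1 to 3 and -0.05, 0.01 and 0.00 in WT, against 0.12, 0.29, -0.12, -0.09, -0.09 and -0.12 for the cytosolic genes in the same order. The difference between both sets was not tested.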
